A study of Homo sapiens with 6 samples.

Results

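Kinesins are motor proteins that walk along microtubules or shorten their ends, using ATP. One branch of the family builds and moves the mitotic spindle and completes cytokinesis, and another carries vesicles, endosomes, mitochondria and ciliary components towards microtubule plus ends. Transcripts of the mitotic branch peak in G2 and mitosis, whereas those of the main transport motors are made throughout the cell cycle. In breast cancer cells the mitotic motors are known chiefly as proliferation-linked genes and drug targets.

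The kinesin genes described here are those whose array symbol is KIF, a number and an optional letter, and that have at least 1 probe set naming no other gene. In all 38 of the 19775 genes tested met this rule, read by 80 probe sets. They are 38 of the 39 protein-coding genes of that name pattern in RefSeq (GRCh38.p14). By known function 12 were classed as mitotic, 13 as transport motors, 6 as motors of cilia and 7 as others.

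The cells were MDA-MB-231, an established triple-negative breast cancer line, and received either SDC1 siRNA or a negative control siRNA. SDC1 encodes the cell surface proteoglycan syndecan-1. Each group comprised 3 arrays, the series describes the replicates as independent, and the time after transfection, the siRNA sequences and untransfected cells were not among the sources used here. One line given 1 control siRNA is the whole of this model, so an effect of the SDC1 siRNA on other transcripts cannot be told apart from loss of syndecan-1.

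Every value below is a log2 expression value relative to the median of its probe set over the 6 arrays, so values compare arrays, not genes. A positive log2 fold change means higher after SDC1 siRNA. A gene was called changed at an adjusted p below 0.05, from a limma fit over all 19775 genes with Benjamini-Hochberg adjustment, and SE is the standard error of that fit with n = 3 per group. The arrays hold no expression levels, but the numeric step of the values places each probe set in 1 of 3 coarse brightness classes. SDC1 itself was at 1.13, 1.32 and 1.09 in control arrays and at -1.14, -1.16 and -1.43 after SDC1 siRNA, which is 18.7% of control (log2 fold change -2.42, SE 0.0973, adjusted p = 2.11e-06). All 7 measured markers of the cell line lay in the brightest class. Of these VIM, CD44 and ANXA1 were lower (-0.62, -0.68 and -0.25) and S100A4 higher (1.08), and the part of this in the kinesin values was not tested. In the brightest class, too, were 3 of 7 markers of luminal, immune and endothelial cells, 5 of 8 of neurons and 0 of 4 of ciliated cells. With limma 0 of these markers of other cells were called, and 2 of the neuronal, 1 of the luminal, immune and endothelial and 0 of the ciliated markers had an unadjusted p under 0.05.

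To set the promoters of spindle motors beside those of cargo motors, the sequence just before the start is shown for 3 mitotic and 3 transport genes, those with the largest called changes. KIF4A, a mitotic gene that was not called, was added after its values were seen. Each run is the 150 bases before the annotated start, 5′ to 3′ on the gene's own strand, from RefSeq on GRCh38.p14. Where a gene has several annotated starts, the one of lowest genome coordinate was taken. Capitals mark the letters of a cell cycle homology region (CHR), through which the DREAM and MuvB complexes act on genes of G2 and mitosis, and of the CCAAT box that NF-Y binds, in either orientation.
KIF11, chr10:92592980-92593129, + strand: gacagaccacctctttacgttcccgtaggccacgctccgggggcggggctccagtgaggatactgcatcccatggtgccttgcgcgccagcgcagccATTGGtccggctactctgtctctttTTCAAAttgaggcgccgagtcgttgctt
KIF20A, chr5:138178962-138179111, + strand: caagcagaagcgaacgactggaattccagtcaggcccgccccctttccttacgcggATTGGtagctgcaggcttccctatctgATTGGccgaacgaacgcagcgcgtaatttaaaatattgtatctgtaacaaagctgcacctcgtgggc
KIF18B, chr17:44947774-44947923, - strand: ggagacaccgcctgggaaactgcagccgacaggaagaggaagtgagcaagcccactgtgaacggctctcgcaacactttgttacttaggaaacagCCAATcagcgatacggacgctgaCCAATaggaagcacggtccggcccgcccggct
KIF4A, chrX:70289954-70290103, + strand: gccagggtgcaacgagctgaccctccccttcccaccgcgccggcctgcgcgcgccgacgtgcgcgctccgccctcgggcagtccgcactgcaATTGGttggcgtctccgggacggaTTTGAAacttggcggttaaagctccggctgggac
KIF3B, chr20:32277501-32277650, + strand: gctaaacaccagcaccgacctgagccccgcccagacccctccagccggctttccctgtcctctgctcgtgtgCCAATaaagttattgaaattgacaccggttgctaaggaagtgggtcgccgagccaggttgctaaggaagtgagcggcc
KIF16B, chr20:16573449-16573598, - strand: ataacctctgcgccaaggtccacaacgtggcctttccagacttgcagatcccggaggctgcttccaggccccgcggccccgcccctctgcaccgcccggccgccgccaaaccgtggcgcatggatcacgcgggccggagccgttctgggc
KIF5B, chr10:32056426-32056575, - strand: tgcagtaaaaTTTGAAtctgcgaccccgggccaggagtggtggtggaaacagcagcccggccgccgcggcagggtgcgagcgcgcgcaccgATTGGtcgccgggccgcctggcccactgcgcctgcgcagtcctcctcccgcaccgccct

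The window searched ran from 250 bases before to 50 after the start, and 32 of the 38 kinesin genes had at least 1 window. The letters searched were TTTGAA or TTCGAA for the CHR and CCAAT for the NF-Y box, on both strands. Sites of the different motifs can share end letters only. Other spellings of the CHR were not searched, so the counts are of these letters alone. Of the 12 mitotic genes 9 held a CHR and 9 an NF-Y box, and 8 held both. Of the 11 transport genes with a window 1 held a CHR and 4 an NF-Y box, and KIF5B was the gene with both. Counted by gene in the same way, 19.5% of all 27305 RefSeq genes with a window held a CHR, 39.7% an NF-Y box and 7.85% both. Counted by window, the shares of all 35116 RefSeq windows were 16.4%, 34.6% and 6.38%. In KIF11 the NF-Y box began 53 and the CHR 28 bases before the start, and in KIF4A they began 58 and 34 bases before it. In KIF18B the CHR lay 2 bases after the start, outside the bases printed. A match is a description of letters, not evidence that a site is used.

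**Figure D1:**
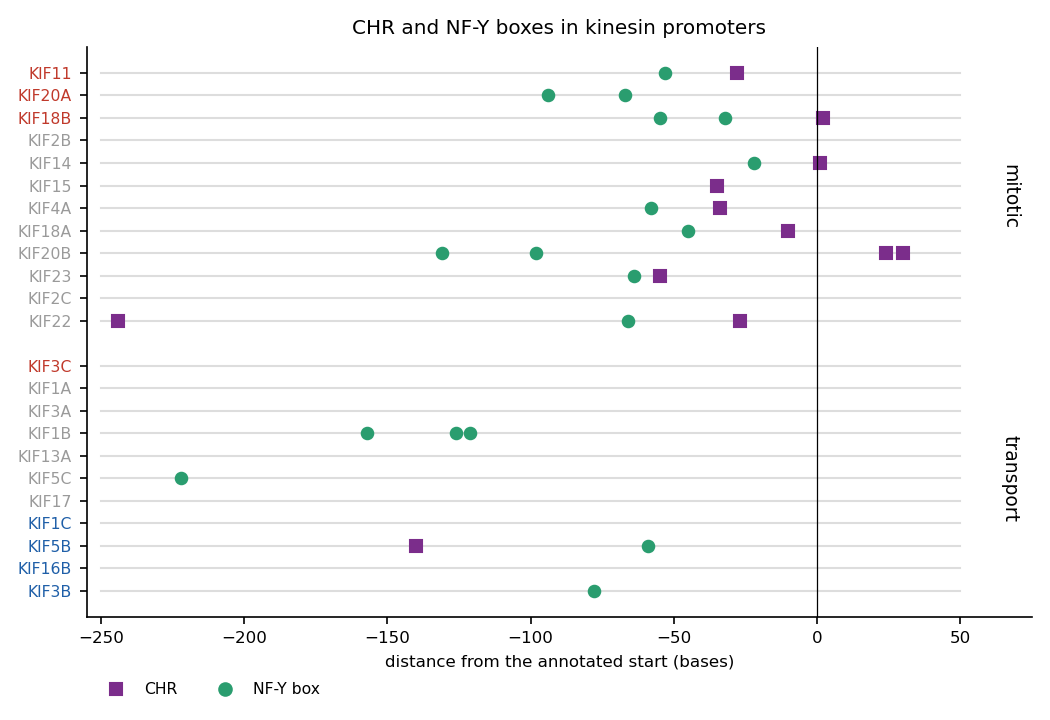
Position of CHR letters (squares) and NF-Y boxes (circles) in the promoter windows of the mitotic and transport kinesin genes, as the distance in bases of the first letter from the annotated start, over all windows of a gene. Red names were called higher after SDC1 siRNA, blue names lower, and grey names were not called; most motif letters of the mitotic genes, called or not, lie within 100 bases of the start.

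Across the family 13 of 38 genes were called, 6 higher and 7 lower. The share is 34.2%, beside 28.2% of all genes tested (13.1% higher and 15.2% lower). Calls are commoner among bright probe sets, with 4.85%, 19.9% and 41.7% of all genes called from the dimmest to the brightest class, which held 1, 11 and 26 of the 38 kinesins. The number of kinesin calls is therefore near that of genes at large, and the median kinesin log2 fold change was 0.00, as was that of all genes. Control and SDC1 siRNA arrays were fully separate for 19 of the 38 kinesins, beside 41.8% of all genes. The changes ran from -0.64 for KIF27 to 1.05 for KIF11.

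**Figure D2:**
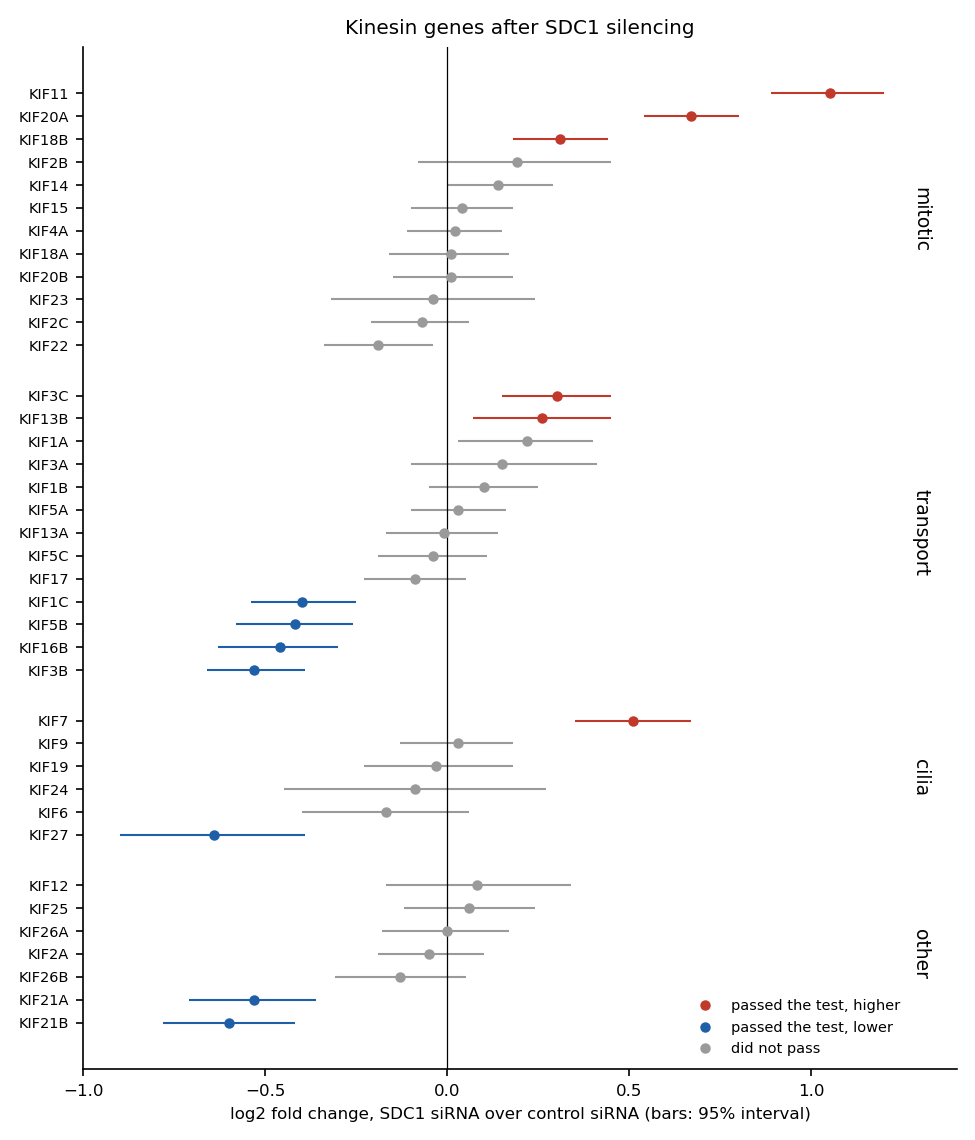
Log2 fold change (SDC1 siRNA over control siRNA) of the 38 kinesin genes in 4 functional classes, with bars for the 95% interval of the limma fit and 3 arrays per group. KIF11 stands highest at 1.05 and KIF20A next at 0.67, and the called transport genes lie on both sides of 0.

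Among mitotic kinesins 3 of 12 were higher and 0 lower, and the other 9 were not called. At an unadjusted p under 0.05 limma had 1 lower, KIF22. The class median was 0.03, beside 0.00 for all genes. In the brightest class, where 11 of the 12 lay, 18.3% of all genes were called higher and 23.3% lower. RNA was taken from whole cultures, so more cells in G2 or mitosis and more transcript per cell cannot be told apart.

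KIF11, the kinesin-5 that slides antiparallel microtubules and pushes the spindle poles apart, had the largest change of the family. It was at -0.46, -0.55 and -0.58 in control arrays and at 0.46, 0.47 and 0.61 after SDC1 siRNA. Every SDC1 siRNA array lay above every control array, and the gap exceeded the spread within either group. The log2 fold change of 1.05 (SE 0.0678, adjusted p = 1.66e-05) is a 2.07-fold rise, read by 1 probe set. KIF15, the kinesin-12 that can stand in for KIF11 in keeping the spindle bipolar, was at 0.04 (95% interval -0.10 to 0.18, adjusted p = 0.699).

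KIF20A, the kinesin-6 that brings the chromosomal passenger complex to the central spindle, was at -0.31, -0.38 and -0.36 in control arrays and at 0.31, 0.32 and 0.31 after SDC1 siRNA. The groups were far apart, with an SD of 0.04 in control and 0.01 in SDC1 siRNA arrays. The rise was 0.67 (SE 0.0559, adjusted p = 6.08e-05), or 1.59-fold. The other kinesin-6 motors did not pass: KIF20B, of late cytokinesis, was at 0.01 (95% interval -0.15 to 0.18), and KIF23, the motor subunit of centralspindlin, at -0.04 (95% interval -0.32 to 0.24). The KIF23 value averages probe sets at -0.25 (adjusted p = 0.275) and 0.17 (adjusted p = 0.508), and its arrays were spread from -0.31 to 0.11 in control cells.

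KIF18B, a kinesin-8 of astral microtubule ends that helps centre the spindle, was at -0.12, -0.21 and -0.15 in control arrays and at 0.12, 0.16 and 0.17 after SDC1 siRNA. The groups did not overlap, and the rise was 0.31 (SE 0.0575, adjusted p = 0.00387), or 1.24-fold. Its relative KIF18A, which damps chromosome oscillations, was at 0.01 (95% interval -0.16 to 0.17, adjusted p = 0.962).

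The remaining mitotic kinesins ran from -0.19 to 0.19. KIF22, a chromokinesin that pushes chromosome arms outward, was lowest at -0.19 (SE 0.0640, adjusted p = 0.0574), with control arrays from 0.05 to 0.17 and SDC1 siRNA arrays from -0.15 to -0.03. That value sits just outside the threshold, and over the alternatives on both batches KIF22 had adjusted p between 0.0352 and 0.243. KIF14, a kinesin of the midbody, was at 0.14 (adjusted p = 0.143), and KIF2C, the centromeric depolymerase MCAK, at -0.07 (adjusted p = 0.430). KIF2B, a testis-enriched depolymerase outside the brightest class, was at 0.19 (adjusted p = 0.291). KIF4A, the chromokinesin that shortens microtubule overlaps at the midzone, was at 0.02, with a 95% interval of -0.11 to 0.15 (adjusted p = 0.854). KIF4A has a near-identical copy, KIF4B, which was not analysed here and whose transcript the probes may share.

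Called and uncalled mitotic genes both held the promoter letters. Of the 8 mitotic genes with both a CHR and an NF-Y box 2 were higher and 6 were not called. KIF20A, the second largest rise, held 2 NF-Y boxes, 94 and 67 bases before the start. Its window held neither of the CHR spellings searched, and other spellings were not looked for.

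**Figure D3:**
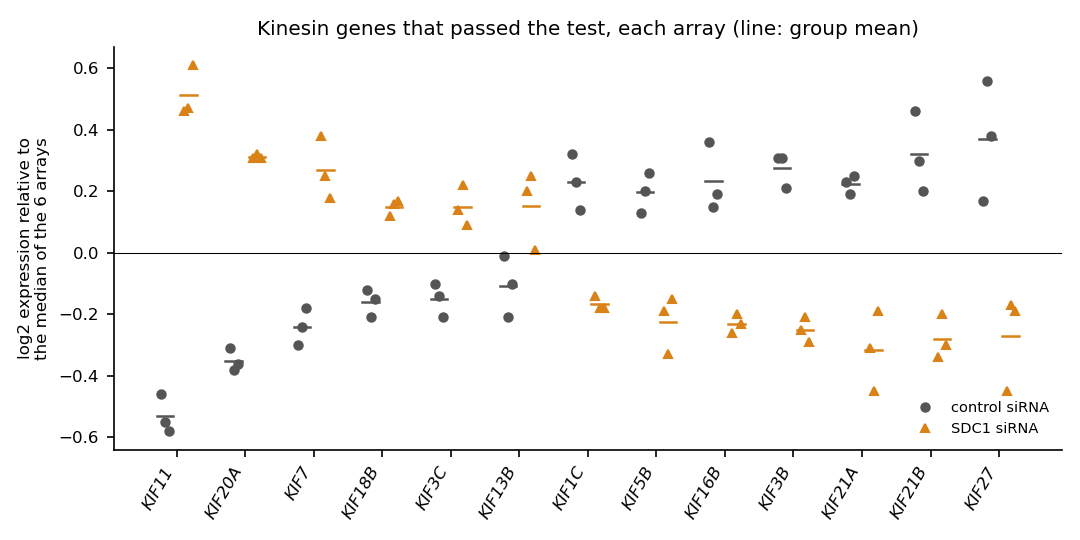
Log2 expression relative to the median of the 6 arrays for the 13 kinesin genes called changed, with circles for the 3 control siRNA arrays, triangles for the 3 SDC1 siRNA arrays and lines for group means. The groups do not overlap for any of the 13 genes, and KIF13B has the narrowest gap, between -0.01 and 0.01.

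Transport kinesins moved in both directions. Of 13, 4 were lower, 2 higher and 7 not called, a share of 46.2% beside 28.2% of all genes, with a class median of -0.01. In the brightest class, which held 9 of the 13, 41.7% of all genes were called. In the middle class, which held the other 4, 19.9% were called. Control and SDC1 siRNA arrays were separate for 8 of the 13, beside 41.8% of all genes. The 4 that fell were left with 69.5% to 76.0% of the control value. Whether the mitotic and transport classes differ was not tested.

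In kinesin-1, the main motor of axons and of vesicles and mitochondria in all cells, the heavy chain KIF5B fell. It was at 0.13, 0.20 and 0.26 in control arrays and at -0.19, -0.33 and -0.15 after SDC1 siRNA. The groups did not overlap, and the log2 fold change was -0.42 (SE 0.0711, adjusted p = 0.00247), leaving 74.7% of the control value. All 3 KIF5B probe sets fell, by 0.24, 0.37 and 0.65. The neuronal heavy chains KIF5A and KIF5C, both outside the brightest class, were at 0.03 and -0.04 (adjusted p = 0.776 and 0.700).

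Kinesin-2, which drives transport into cilia and moves late endosomes and other cargo, is a heterotrimer of KIF3A, either KIF3B or KIF3C, and the linker KIFAP3. KIF3B was at 0.31, 0.31 and 0.21 in control arrays and at -0.25, -0.21 and -0.29 after SDC1 siRNA. Its log2 fold change was -0.53 (SE 0.0609, adjusted p = 0.000329), and its 2 probe sets gave -0.52 and -0.53. KIF3C, the alternative partner, moved the other way. KIF3C was at -0.10, -0.14 and -0.21 in control arrays and at 0.14, 0.22 and 0.09 after SDC1 siRNA. The rise was 0.30 (SE 0.0640, adjusted p = 0.00792). Of its probe sets 1 was called, at 0.32 (adjusted p = 0.0113), and 1 was not, at 0.28 (adjusted p = 0.068). KIF3A, the shared chain, was at 0.07, -0.07 and -0.08 in control arrays and at 0.23, 0.29 and -0.14 after SDC1 siRNA, so its groups overlapped (log2 fold change 0.15, SE 0.113, adjusted p = 0.370). Without SDC1 siRNA replicate 3 it was at 0.29 (adjusted p = 0.0300), the lowest adjusted p of its alternatives, which reached 0.723 on both batches. Within the batches KIF3A was at 0.19 and -0.06 (adjusted p = 0.228 and 0.781). KIFAP3 fell by 0.35 (SE 0.0612, adjusted p = 0.00284), from 0.14, 0.28 and 0.21 to -0.15, -0.14 and -0.14. The homodimeric kinesin-2 KIF17 was at -0.09 (adjusted p = 0.317).

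The kinesin-3 motors of vesicles and endosomes also divided. KIF16B, which carries early endosomes through a lipid-binding PX domain, was at 0.36, 0.15 and 0.19 in control arrays and at -0.26, -0.20 and -0.23 after SDC1 siRNA. It fell by 0.46 (SE 0.0708, adjusted p = 0.00143), and both of its probe sets fell, by 0.38 and 0.55. Both are of the middle brightness class. KIF1C, a fast vesicle motor known for transport of integrin and dense-core vesicles, was at 0.32, 0.23 and 0.14 in control arrays and at -0.14, -0.18 and -0.18 after SDC1 siRNA. Its log2 fold change of -0.40 (SE 0.0652, adjusted p = 0.00215) rests on 1 of 3 probe sets. The others gave -0.07 and -0.06 (adjusted p = 0.644 and 0.732), and with all 3 averaged KIF1C was at -0.17 (adjusted p = 0.0609). With the brightness class read from all 6 arrays it was at -0.23 (adjusted p = 0.0214).

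KIF13B, which brings cargo to the plasma membrane, was at -0.01, -0.21 and -0.10 in control arrays and at 0.20, 0.25 and 0.01 after SDC1 siRNA. The rise of 0.26 (SE 0.0837, adjusted p = 0.0486) lies just inside the threshold. In the limma test over all probe sets its only probe set was not called (adjusted p = 0.0817). The call was lost without control replicate 2 (0.21, adjusted p = 0.147) or 3 (0.26, adjusted p = 0.0996) and without SDC1 siRNA replicate 1 (0.24, adjusted p = 0.137) or 2 (0.21, adjusted p = 0.156). A block for the spike-in batches described below also lost it (0.20, adjusted p = 0.0621). KIF13A, an endosome motor and the closest paralog of KIF13B, was at -0.01 over 4 probe sets (adjusted p = 0.909). KIF1A, best known from neurons, was at 0.22 (adjusted p = 0.0828), and KIF1B, a carrier of mitochondria and vesicles, at 0.10 (adjusted p = 0.302). A block for those batches brought KIF1A past the threshold (0.26, adjusted p = 0.0421), and its adjusted p otherwise lay between 0.0539 and 0.215 on both batches.

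Motors of cilia had 1 gene higher, 1 lower and 4 not called, a share called of 33.3% beside 28.2% of all genes. The pair that was called are paralogs of the kinesin-4 family related to a fly Hedgehog pathway protein. KIF7, which organises the ciliary tip for Hedgehog signalling, was at -0.30, -0.24 and -0.18 in control arrays and at 0.38, 0.25 and 0.18 after SDC1 siRNA. It rose by 0.51 (SE 0.0708, adjusted p = 0.000851). KIF27 went from 0.17, 0.56 and 0.38 to -0.45, -0.17 and -0.19, a fall of 0.64 (SE 0.112, adjusted p = 0.00293). Each gene is read by 1 probe set of the middle brightness class, though that of KIF27 falls in the dimmest when all 6 arrays are read. KIF27 had the widest spread of the 13 called genes (SD 0.20 in control arrays and 0.15 after SDC1 siRNA). The motile-cilium kinesins KIF6 and KIF9 were at -0.17 and 0.03, KIF19, which limits ciliary length, at -0.03, and the centriolar KIF24, the only kinesin of the dimmest class, at -0.09, with adjusted p between 0.264 and 0.867.

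The remaining 7 kinesins had 2 members lower, a share of 28.6% beside 28.2% of all genes called and 15.2% called lower. These were KIF21A and KIF21B, paralogous kinesin-4 motors that restrain microtubule growth. KIF21A was at 0.23, 0.19 and 0.25 in control arrays and at -0.31, -0.45 and -0.19 after SDC1 siRNA, a fall of 0.53 (SE 0.0761, adjusted p = 0.000991). Its dimmer probe set was at -0.32 (adjusted p = 0.0718). KIF21B was at 0.46, 0.30 and 0.20 in control arrays and at -0.34, -0.20 and -0.30 after SDC1 siRNA, a fall of 0.60 (SE 0.0803, adjusted p = 0.000696). The only probe set of KIF21B is of the middle brightness class. KIF2A, a microtubule depolymerase of spindle poles and neurons, was at -0.05 (adjusted p = 0.646). KIF12, KIF25, KIF26A and KIF26B ran from -0.13 to 0.08, with adjusted p from 0.263 to 0.986. A dim KIF26A probe set outside the gene value was at -0.26 (adjusted p = 0.0470).

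**Figure D4:**
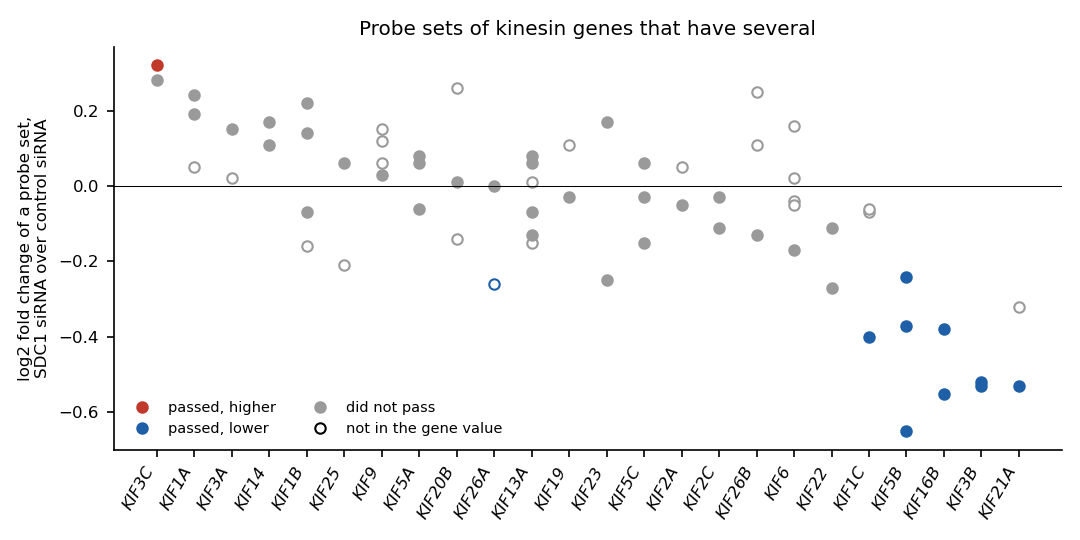
Log2 fold change of each probe set of the 24 kinesin genes that have more than 1, filled where the probe set entered the gene value and coloured where it passed the test over all probe sets. All probe sets of KIF3B, KIF5B and KIF16B were called lower, KIF1C had 1 called of 3, and no gene had probe sets called in both directions.

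Of the 13 called genes 7 are read by a single probe set, so no second probe set could be compared for KIF11, KIF20A, KIF18B, KIF7, KIF27, KIF13B or KIF21B. Probe sets of the poly-A control RNAs added during labelling averaged 0.371 to 0.669 in 3 arrays and -0.453 to -0.405 in the others. They put SDC1 siRNA replicates 1 and 2 in a batch with control replicate 1, and the other 3 arrays in another. These batches were inferred from the control RNAs alone, and the sample titles name no batch. Whether they mark separate processing of the arrays was not tested. The 13 called kinesins had the same sign in both batches, which follows from groups that do not overlap and adds no support of its own. For size, KIF11 was at 0.93 and 1.18, KIF20A at 0.63 and 0.69, KIF3B at -0.54 and -0.55, and KIF5B at -0.39 and -0.38.

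The partners of the mitotic motors moved both ways. Of 24 measured regulators, cargoes and cell cycle genes listed with them 4 were higher and 8 lower, with a median of 0.01. That is 12 of 24 called, beside 28.2% of all genes and 41.7% of those in the brightest class, which held 22 of the 24. PRC1, the microtubule bundler of the midzone that recruits KIF4A, rose by 0.87 (SE 0.0704, adjusted p = 5.40e-05), from -0.39, -0.38 and -0.57 to 0.38, 0.43 and 0.46. CCNA2, the cyclin of S phase and G2, fell by 0.45 (SE 0.0661) and BUB1, a kinase of the spindle checkpoint, by 0.41 (SE 0.0627). With all probe sets averaged BUB1 was at -0.25. Chosen after their values were seen, ECT2, which acts downstream of centralspindlin in furrowing, fell by 0.46 (SE 0.0773, adjusted p = 0.00243), and RACGAP1, which joins KIF23 in centralspindlin, was at -0.18 (adjusted p = 0.0483). The RACGAP1 call was lost when any 1 of the 6 arrays was left out (adjusted p between 0.0699 and 0.159). Mean values of the list in the 6 arrays lay between -0.02 and 0.02. For the 12 mitotic kinesins the means were -0.13 to -0.08 in control and 0.05 to 0.12 in SDC1 siRNA arrays. Their medians were closer, at -0.08 to -0.01 in control and 0.00 to 0.07 in SDC1 siRNA arrays. The means take in the large rises of KIF11 and KIF20A, to which a median gives little weight. The part of cell cycle position in these values was not tested.

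Transcription factors and DREAM or MuvB subunits that act on genes of G2 and mitosis had 6 of 16 members higher and 3 lower, with a median of 0.13. The share called was 56.2%, beside 28.2% of all genes and 41.7% of the brightest class, which held 15 of the 16. TFDP1, an E2F partner, rose by 0.39 (SE 0.0670, adjusted p = 0.00286) and RBL2, the p130 subunit of DREAM, by 0.36 (SE 0.0777, adjusted p = 0.00821). RBBP4, a histone-binding subunit, was at 0.53 (SE 0.0937, adjusted p = 0.00307) on its brightest probe set and at 0.17 (adjusted p = 0.144) over all of them.

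Of 5 kinesins whose symbols fall outside the name pattern 2 were higher, beside 13.1% of all genes. CENPE, the kinesin-7 that carries chromosomes to the spindle equator, was at -0.24, -0.22 and -0.26 in control arrays and at 0.25, 0.27 and 0.22 after SDC1 siRNA, a rise of 0.49 (SE 0.0558, adjusted p = 0.000300). STARD9, a centrosomal kinesin-3, rose by 0.54 (SE 0.0949, adjusted p = 0.00308). The minus-end motor KIFC3 was at -0.06 (adjusted p = 0.621).

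Light chains and cofactors of transport motors had 3 of 10 members lower and 0 higher (also 0 higher at an unadjusted p under 0.05 in limma), with a median of -0.08. The share called, 30.0%, is near the 28.2% of all genes and below the 41.7% of the brightest class, which held 8 of the 10. Besides KIFAP3 these were KIFBP, which binds several kinesin motor domains and blocks them, at -0.30 (SE 0.0552, adjusted p = 0.00360), and MAP7, which recruits kinesin-1 to microtubules, at -0.39 (SE 0.106, adjusted p = 0.0244). The MAP7 call was lost without control replicate 1 or SDC1 siRNA replicate 1 or 2, with adjusted p of 0.0537, 0.0661 and 0.0841, and MAP7 was at -0.68 and -0.15 within the batches. The kinesin-1 light chains KLC1, KLC2 and KLC4, named after their values were seen, were at 0.09, -0.08 and -0.08 (adjusted p = 0.300, 0.542 and 0.514), while their heavy chain KIF5B fell.

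Among 19 measured cargo adaptors 4 were lower and 1 higher, with a median of 0.07. The share called, 26.3%, lies below the 28.2% of all genes and the 41.7% of the brightest class, which held 13 of the 19. SPAG9, the scaffold JIP4 that couples kinesin-1 and dynein to lysosomes and endosomes, fell by 0.54 (SE 0.0648, adjusted p = 0.000400). RHOT1 and TRAK2 link mitochondria to kinesin-1, the former as the outer membrane GTPase Miro1 and the latter as its adaptor. RHOT1 fell by 0.50 (SE 0.0721, adjusted p = 0.00102), or was at -0.23 (adjusted p = 0.0864) with all probe sets averaged, and TRAK2 fell by 0.41 (SE 0.0791, adjusted p = 0.00469). Their paralogs RHOT2 and TRAK1, named after their values were seen, were each at 0.18 and not called (adjusted p = 0.0769 and 0.0945).

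**Figure D5:**
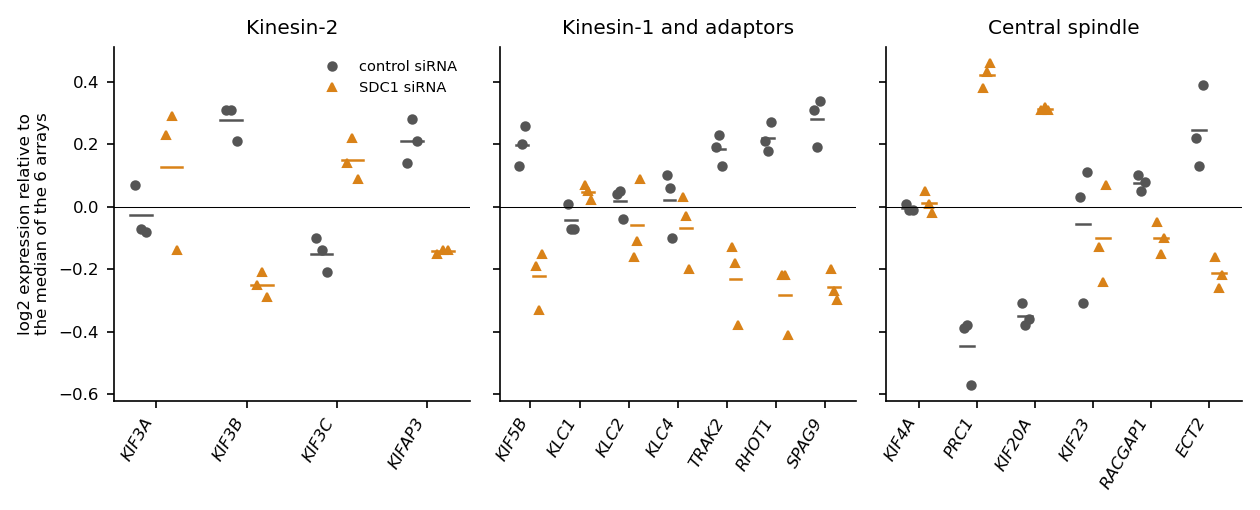
Log2 expression relative to the median of the 6 arrays for subunits of kinesin-2, for kinesin-1 with its light chains and adaptors, and for motors and partners of the central spindle; circles are control siRNA arrays, triangles SDC1 siRNA arrays and lines group means. KIF3B and KIFAP3 fall while KIF3C rises, KIF5B falls while KLC1, KLC2 and KLC4 overlap or nearly meet, and PRC1 and KIF20A rise while KIF4A stays within 0.05 of 0.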

How the data were processed

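Total RNA of 6 MDA-MB-231 cultures was labelled with biotin and hybridised to Affymetrix arrays, per the labels' protocols. The authors deposited log2 values of 54675 probe sets, and RMA is named, without a version, per the submitters' processing notes. The log base and the centring of each probe set on its median over the arrays were read from the values.

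Symbols came from the platform annotation. Probe sets naming 1 gene were averaged per gene within the brightest class it has, leaving out _x_at sets where others exist. Brightness comes from the numeric step of the 3 highest arrays and can place a probe set too high. No build is named for the array, and coordinates belong to the RefSeq promoter table.

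Genes were fitted with limma 3.58.1 in R 4.3.3 (2-sided, 2 groups, no covariates). Tested on simulated data, the fit on 19775 genes recovered 75 of 100 genes changed by 0.5 and 96 of 100 changed by 1 on the log2 scale. It also called 8 unchanged genes. No other genes were changed there, whereas 28.2% of all genes were called here. The recovered shares may therefore differ for these arrays. The number of arrays limits precision, and the median SE was 0.075.

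The members, classes and lists were chosen with earlier results of these data known, so lists are described by counts and medians only. All 38 members are named, called or not, with SDC1, the antisense genes and the 3 genes of lowest p in a list. ANXA1 is named as well, since the 4 called markers of the cell line are all given. Other genes are marked as chosen later.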

Additional observations from a re-analysis of the deposited data

How the results depend on the processing

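Of the 13 called kinesins 11 kept their call under all 13 alternatives fitted on both batches. The exceptions were KIF1C and KIF13B, whose values are given above, and the cause was not tested. The count of mitotic kinesins lower was 1, through KIF22, with all probe sets averaged, with the dimmest class left out and with a robust prior. The count of transport kinesins higher was 1 with the replicate block, and between 1 and 3 when 1 array was left out, the highest without SDC1 siRNA replicate 3. SDC1 kept its call throughout. With KIF2A counted as mitotic and KIF21A and KIF21B as transport, 6 transport kinesins were lower. Each batch alone holds 3 arrays, with 1 group read by a lone array that is assumed to vary like the other group, and gave fewer calls. Within the first, 3 kinesins were higher, 0 transport kinesins were higher, and the transport median was 0.04. Within the second, 2 kinesins were higher and 3 lower, 0 transport kinesins were higher and 1 lower, and the mitotic and transport medians were 0.13 and -0.06. Among markers of other cells MAP2 reversed from -0.25 (adjusted p = 0.0858) to 0.29 (adjusted p = 0.0450) with all probe sets averaged. CD3E, at 0.31, passed with the replicate block (adjusted p = 0.0209) and, at 0.39, without control replicate 3 (adjusted p = 0.0403). ENO2, at 0.17, passed with a robust prior (adjusted p = 0.0416), and PTPRC, at 0.40, within the first batch (adjusted p = 0.0492). The replicate numbers did not pair the samples (correlations of deviations 0.015, 0.081 and 0.101), and the replicate block changed 1 kinesin call, that of KIF13B (adjusted p = 0.0653).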

Other observations

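The minus-end motor dynein and its activators had 2 of 21 members higher and 5 lower, with a median of -0.12. The share called was 33.3%, beside 28.2% of all genes and 41.7% of the brightest class, which held 20 of the 21. NDEL1, which loads dynein with its regulators, fell by 0.43 (SE 0.0589, adjusted p = 0.000806), or by 0.21 with all probe sets averaged. BICD1, a cargo adaptor, rose by 0.53 (SE 0.0761, adjusted p = 0.00104). DCTN2, the dynamitin subunit of dynactin, was at -0.32 (adjusted p = 0.00419) on its brightest probe set and at -0.05 (adjusted p = 0.640) over all of them. Of 15 tubulins 4 were higher and 1 lower, with a median of 0.03 and the same share called, and 12 of the 15 lay in the brightest class. TUBA1A rose by 0.36 (adjusted p = 0.00825), TUBB2B by 0.34 (adjusted p = 0.00601) and TUBB4A by 0.33 (adjusted p = 0.0156), the last not called without SDC1 siRNA replicate 2 (0.30, adjusted p = 0.0579). Antisense RNA genes of KIF1C, KIF9, KIF23 and KIF25 were at -0.04, 0.03, 0.00 and 0.12, and none was called.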
